A study of Oryza sativa Japonica Group with 8 samples.

Results

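The SPL genes (SQUAMOSA PROMOTER BINDING PROTEIN-LIKE) encode plant transcription factors that share a DNA-binding SBP domain. Many rice SPL mRNAs carry a site complementary to the microRNA miR156, and 10 of these genes, SPL3, SPL4, SPL7, SPL11, SPL12, SPL13, SPL14, SPL16, SPL17 and SPL18, were followed here. They were taken by their identifiers from the 37859 genes of the deposited table, with earlier results of these data known. All 10 were listed there, and 9 of them reached the mean of 1 FPKM over all libraries that the test required. FPKM counts sequenced fragments relative to the length of the gene model and the size of the library. Levels can thus be set side by side between genes, but they depend on the quantification. In wild type a second set of values from the authors was 1.09 to 2.48 times the mean FPKM, depending on the SPL gene.

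By pairing with its site, miR156 directs cleavage of SPL mRNAs and lowers their translation. It is abundant in young plants and declines as they mature, and the rise of SPL activity that follows accompanies the move to adult and reproductive growth. In rice, SPL proteins act on tillering, on the branching of the panicle (the inflorescence) and on grain size. Only mRNA was read in the table used here, so neither miR156 itself nor SPL protein was analysed.

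The study compared the osg1l2 single mutant with a wild type control in the Nipponbare cultivar, with 4 libraries in each group. OsG1L2 belongs to the ALOG family of plant nuclear proteins, and the series title ties it to the branching of the inflorescence. The labels give neither the mutant allele nor the number of lines behind it. Plants of both genotypes were moved from long days (16 h of light) to short days (12 h of light) for 12 days, and young inflorescence meristems were then dissected, at the stages that the labels abbreviate as PBM and ePBM/AM. Total RNA of the dissected tissue was sequenced in bulk, so fewer cells of a type and less RNA per cell cannot be told apart in any value below.

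The libraries summed to between 213940 and 231675 FPKM, with 17960 to 18334 genes at 1 FPKM or more. These totals leaned by genotype. Wild type replicates 1, 3 and 4 (228117, 231675 and 227965) lay above all osg1l2 libraries (213940 to 221906). Wild type replicate 2 (218558) lay inside the osg1l2 range. The main test used the FPKM values without rescaling, so negative differences are also given after rescaling for some genes. Sequencing depth is unknown. On the second principal component wild type replicate 2 lay at -28.4 and the remaining wild type libraries between 4.87 and 10.8, and the differences of SPL4, SPL7, SPL13, SPL14 and SPL17 are also given without it. Neither the OsG1L2 transcript nor marker genes of the dissected tissue were checked, because the tables used here do not pair those identifiers with names.

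The 10 SPL genes spanned a wide range of transcript levels. SPL14 was the most abundant in all 8 libraries, at 90.7 FPKM ± 5.87 (SD, n = 4) in wild type and 78.9 ± 5.85 (SD, n = 4) in osg1l2, above 98.5% of the tested genes. SPL16 was the least abundant, at 0.582 FPKM ± 0.147 (SD, n = 4) and 0.653 ± 0.0777 (SD, n = 4). The order by mean level over the 8 libraries was SPL14, SPL3, SPL13, SPL12, SPL17, SPL7, SPL4, SPL11, SPL18 and SPL16.

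Most steps in this order were larger than the spread between libraries. The lowest SPL14 library (71.5 FPKM) lay above the highest SPL3 library (65.8 FPKM). The ranges of SPL3 and SPL13 overlapped (52.7 to 65.8 and 42.8 to 57.3 FPKM), although SPL3 was the higher of the 2 in each of the 8 libraries. In these FPKM values SPL13, SPL12, SPL17 and SPL7 were separated from one another without overlap. SPL4, SPL11 and SPL18 formed a low group with overlapping ranges. In that group SPL4 exceeded SPL11 in 7 of 8 libraries, and SPL11 exceeded SPL18 in 5 of 8, so SPL11 and SPL18 had no consistent order.

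**Figure D1:**
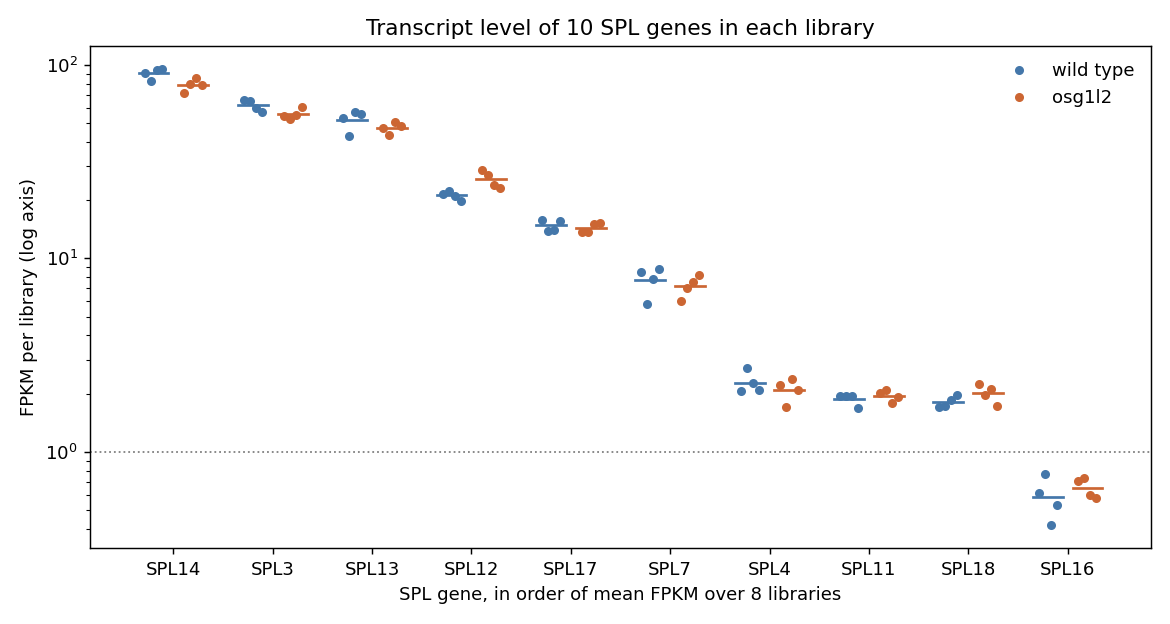
FPKM of the 10 SPL genes in each library, on a log axis, in order of mean level, with wild type in blue, osg1l2 in orange and group means as short lines. The dotted line marks 1 FPKM, the mean a gene needed over all libraries to be tested; SPL14 lies at the top and SPL16 is the only gene under the line.

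A few genes supplied most of the SPL transcript. SPL14, SPL3 and SPL13 together made up 80.2% ± 0.686 (SD, n = 4) of the summed FPKM of the 10 genes in wild type and 77.1% ± 1.23 (SD, n = 4) in osg1l2. SPL14 alone held 35.5% of the sum in wild type and 33.4% in osg1l2. The share of SPL12 was 8.25%, 9.35%, 8.07% and 7.66% in the wild type libraries and 12.6%, 11.7%, 9.78% and 9.61% in osg1l2. Rescaling a whole library by a common factor leaves these shares as they are, though quantile normalization can change them. A share also moves when another gene of the set does.

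The summed level of the 10 genes was 262.1, 239.4, 260.5 and 259.0 FPKM in wild type replicates 1 to 4. In osg1l2 it was 228.4, 230.3, 245.3 and 240.6 FPKM. Wild type replicate 2 fell inside the osg1l2 range, and the other 3 wild type libraries lay above all 4 mutant libraries. As a percent of each library's total FPKM the order was less clear: the sum made up 0.110% to 0.115% in wild type and 0.104% to 0.114% in osg1l2, and osg1l2 replicate 3 lay above 3 of the wild type libraries. The mean difference was -19.1 FPKM, osg1l2 minus wild type, and -11.7 FPKM after the libraries were rescaled by median-of-ratios. As a sum over chosen genes it was not tested.

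The 2 genotypes were compared to ask whether SPL transcripts differ when OsG1L2 is mutated. None of the 9 tested SPL genes passed (limma on log2(FPKM + 1), adjusted p under 0.05), where 1.93% of all 18254 tested genes did. At an unadjusted p under 0.05 there were 3 of 9, SPL12 with a positive and SPL14 and SPL3 with a negative difference, against 19.5% of all tested genes. The 4 values of each genotype did not overlap for 1 of the 9 genes, SPL12, against 11.8% of all tested genes. Those counts of members are small, and for groups without overlap the members were close to the background. At an unadjusted p under 0.05 the count was 2 after median-of-ratios scaling and 1 after quantile normalization, each beside 18.5% of all tested genes. It was 4 with library quality weights, beside 26.2%. Without single libraries it was 2 or 3, beside 13.6% to 24.8%. A gene that misses the threshold is not shown to be equal in the genotypes, so differences are given below with their errors. With 4 libraries against 4, an exact permutation test cannot go below p = 0.0286.

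The differences of the SPL genes were of about the size seen for a typical tested gene. The log2 differences of the 9 genes ran from -0.20 to 0.26, with a median of -0.082, beside a median of -0.037 over all tested genes. This order rested on single libraries: without osg1l2 replicate 2 the medians were -0.019 for the SPL genes and -0.045 for all tested genes, without osg1l2 replicate 1 they were -0.020 and -0.029, and without wild type replicate 4 they were -0.025 and -0.036. After median-of-ratios rescaling they were -0.047 and -0.0022. Their median absolute size was 0.098, beside 0.090 over all tested genes. The sign was negative for 6 of the 9 and positive for 3 (33.3%), close to the 38.3% of all tested genes with a positive sign. All 9 of the 95% intervals lay within 0.5 on the log2 scale in either direction.

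SPL14 (Os08g0509600, on chromosome 8 by its identifier), also named IPA1 and WFP, promotes panicle branching and restrains tillering. Its level was 90.9, 82.4, 94.0 and 95.5 FPKM in the wild type libraries. In osg1l2 it was 71.5, 80.0, 85.7 and 78.4 FPKM. The 4 mutant libraries lay under the wild type mean, and 3 of them under every wild type library; osg1l2 replicate 3 overlapped with wild type replicate 2. The log2 difference was -0.20 (SE 0.070, 95% interval -0.36 to -0.043), with a limma adjusted p of 0.17 and an exact two-sided permutation p of 0.0571. Without wild type replicate 2 the difference was -0.24 (limma adjusted p = 0.067). The 95% interval held 0 after quantile normalization (-0.13, from -0.27 to 0.0095) and without wild type replicate 4 (-0.17, from -0.35 to 0.0016).

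SPL17 (Os09g0491532, chromosome 9) is the closest relative of SPL14, and SPL7 (Os04g0551500, chromosome 4) and SPL17 act with it in shoot and panicle branching. SPL17 was at 15.8, 13.9, 14.1 and 15.6 FPKM in wild type and at 13.7, 13.6, 15.1 and 15.2 FPKM in osg1l2. The groups overlapped, 2 mutant libraries being above and 2 below the wild type mean, and the log2 difference was -0.042 (95% interval -0.18 to 0.098, limma adjusted p = 0.75). It was -0.070 when wild type replicate 2 was left out, -0.012 when wild type replicate 1 was, and -0.0020 after median-of-ratios rescaling. SPL7 was at 8.53, 5.83, 7.83 and 8.82 FPKM in wild type and at 6.03, 7.01, 7.58 and 8.25 FPKM in osg1l2. Its lowest value of all came from wild type replicate 2. Its log2 difference was -0.085 (95% interval -0.36 to 0.19, limma adjusted p = 0.75) and, without that library, -0.20 (95% interval -0.41 to 0.013, limma adjusted p = 0.22); the fits that left out another library gave -0.14 to -0.012.

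Among SPL13, SPL16, SPL18 and SPL4, the genes described here by their part in grain traits, SPL13 was the most abundant. SPL13 (Os07g0505200, chromosome 7), also named GLW7, promotes grain length. It was at 52.98, 42.8, 57.3 and 55.6 FPKM in wild type and at 47.0, 43.4, 50.8 and 48.5 FPKM in osg1l2. All 4 mutant libraries were under the wild type mean, but wild type replicate 2 was the lowest of the 8. The log2 difference was -0.13 (95% interval -0.34 to 0.079, limma adjusted p = 0.48). Without wild type replicate 2 it was -0.22 (95% interval -0.36 to -0.078, limma adjusted p = 0.079), and the fits that left out another library gave -0.16 to -0.081.

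SPL16 (Os08g0531600, chromosome 8), which controls grain width, and SPL18 (Os09g0507100, chromosome 9), which affects grain weight and number, had low levels in this tissue. SPL16 ranged from 0.417 to 0.766 FPKM in wild type and from 0.578 to 0.731 FPKM in osg1l2. It did not reach the level filter; in a fit with no filter its log2 difference was 0.067 (95% interval -0.10 to 0.23, limma adjusted p = 0.69). SPL18 ranged from 1.70 to 1.97 FPKM in wild type and from 1.72 to 2.24 FPKM in osg1l2. Its log2 difference was 0.098 (95% interval -0.065 to 0.26, limma adjusted p = 0.49), with 2 mutant libraries above every wild type library, and it was 0.061 without osg1l2 replicate 1. SPL4 (Os02g0174100, chromosome 2), for which alleles affecting grain size are known, ranged from 2.07 to 2.70 FPKM in wild type and from 1.71 to 2.38 FPKM in osg1l2 (log2 difference -0.082, limma adjusted p = 0.66). Its difference was -0.023 with wild type replicate 2 left out and -0.019 with osg1l2 replicate 2 left out.

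SPL12 (Os06g0703500, on chromosome 6 by its identifier) had the largest difference of the 9. It was at 21.6, 22.4, 21.0 and 19.8 FPKM in wild type and at 28.8, 27.0, 24.0 and 23.1 FPKM in osg1l2. Every mutant library was above every wild type library, with means of 21.2 FPKM ± 1.07 (SD, n = 4) and 25.7 ± 2.63 (SD, n = 4), a difference of 21.2% of the wild type mean. The gap between the groups was narrow, from 22.4 in the highest wild type library to 23.1 in the lowest mutant library. The log2 difference was 0.26 (SE 0.074, 95% interval 0.095 to 0.43), with a limma adjusted p of 0.11 and an exact two-sided permutation p of 0.0286. By its unadjusted p, 0.0060, it ranked 1002 of the 18254 tested genes. Over 17 alternative settings its log2 difference stayed between 0.21 and 0.31 and its limma adjusted p between 0.057 and 0.25. Some of these settings, such as the filters and the replicate block, leave the log2 difference itself as it is.

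SPL3 (Os02g0139400, on chromosome 2), which acts in crown root development, differed in the opposite sense. It was at 65.8, 64.9, 59.7 and 57.4 FPKM in wild type and at 54.3, 52.7, 55.3 and 60.8 FPKM in osg1l2. The first 3 mutant libraries lay under all wild type libraries, while osg1l2 replicate 4 lay inside the wild type range. The log2 difference was -0.15 (SE 0.064, 95% interval -0.29 to -0.0038, limma adjusted p = 0.25, exact permutation p = 0.0857). After median-of-ratios rescaling it was -0.11, with an interval of -0.26 to 0.044 that held 0, and after quantile normalization it was -0.086. The interval also held 0 with a replicate block (-0.34 to 0.045). The same was so without wild type replicate 1, 2 or 3 and without osg1l2 replicate 1, 2 or 3, each left out singly. SPL11 (Os06g0663500, chromosome 6) ranged from 1.68 to 1.95 FPKM in wild type and from 1.79 to 2.08 FPKM in osg1l2, with a log2 difference of 0.037 (limma adjusted p = 0.80) that was 0.0017 without wild type replicate 4, its lowest library.

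**Figure D2:**
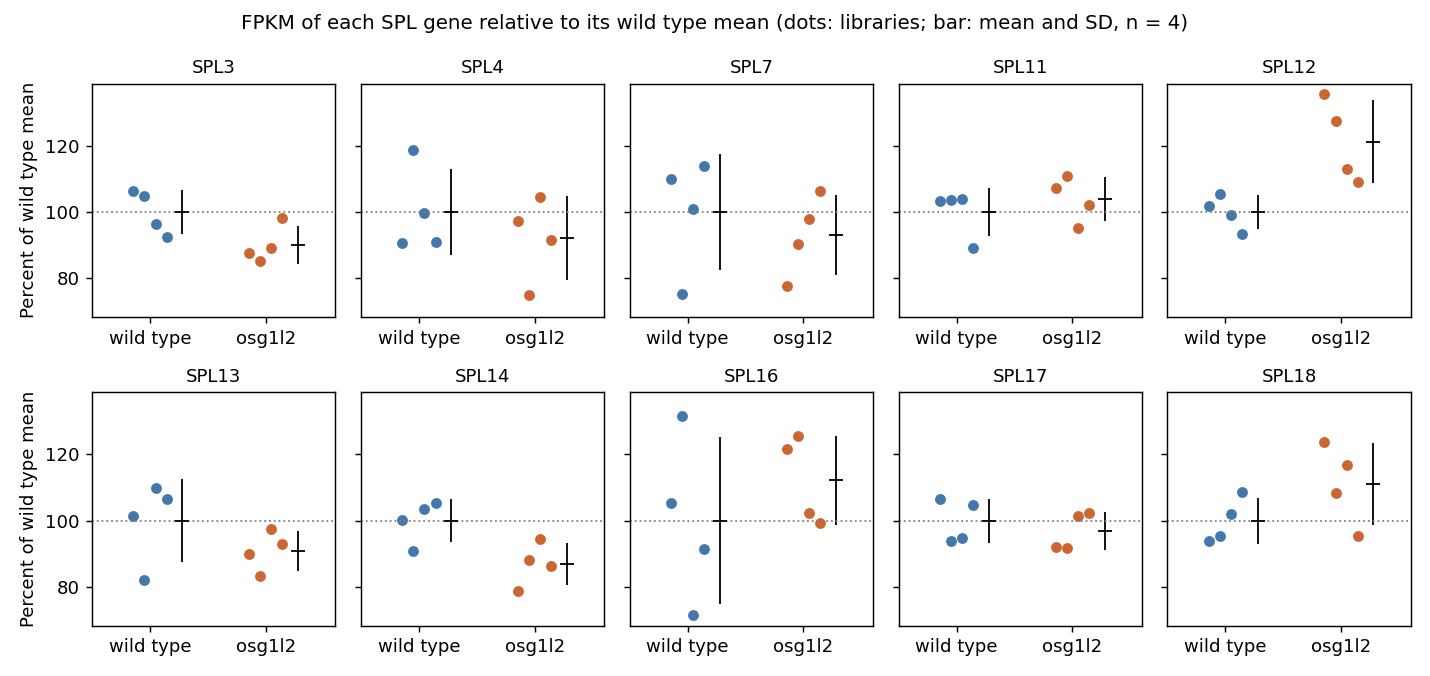
FPKM of each SPL gene in each library as a percent of that gene's wild type mean (dotted line at 100), with wild type in blue, osg1l2 in orange, and the mean and SD of 4 libraries as a bar beside the dots. The groups are apart for SPL12 alone, where the mutant mean lies 21.2% above the wild type mean; the SPL14 mutant mean lies 13.0% below it, with 1 library overlapping.

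**Figure D3:**
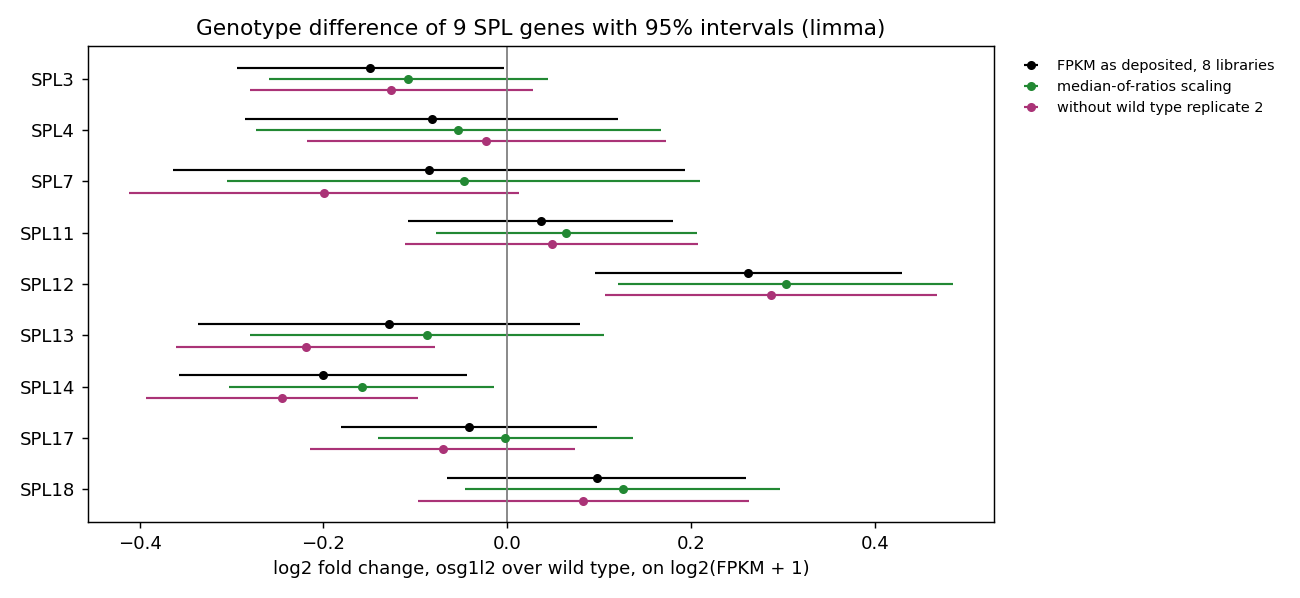
Log2 fold change (osg1l2 over wild type, from log2(FPKM + 1) values) of the 9 tested SPL genes, with 95% intervals from limma, for the FPKM values as deposited, after median-of-ratios rescaling and without wild type replicate 2. In these 3 settings SPL12 and SPL14 have intervals on 1 side of 0, SPL3 in the first and SPL13 in the third, and no adjusted p was under 0.05.

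Several of these genes are close paralogues, so their balance within a library was also read. Rescaling a whole library by a common factor does not touch this balance, though quantile normalization can. The sources used here do not say how reads matching more than 1 paralogue were assigned, so the split within a pair is uncertain. The ratio of SPL12 to SPL3 was 0.328, 0.345, 0.352 and 0.346 in wild type and 0.529, 0.513, 0.434 and 0.381 in osg1l2. All 4 mutant ratios were above the wild type ratios, and they were more spread, with an SD of 0.0696 against 0.0102. This ratio combines the positive difference of SPL12 with the negative one of SPL3, both given above. How often the ratios of other gene pairs separate the genotypes was not counted. The ratio of SPL17 to SPL14 averaged 0.164 ± 0.0105 (SD, n = 4) in wild type and 0.183 ± 0.0117 (SD, n = 4) in osg1l2, and the groups overlapped. The ratios of SPL11 to SPL4 (0.831 and 0.950 on average) and of SPL18 to SPL16 (3.29 and 3.10) overlapped as well. The pairs were chosen with the values known, so no test was made.

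**Figure D4:**
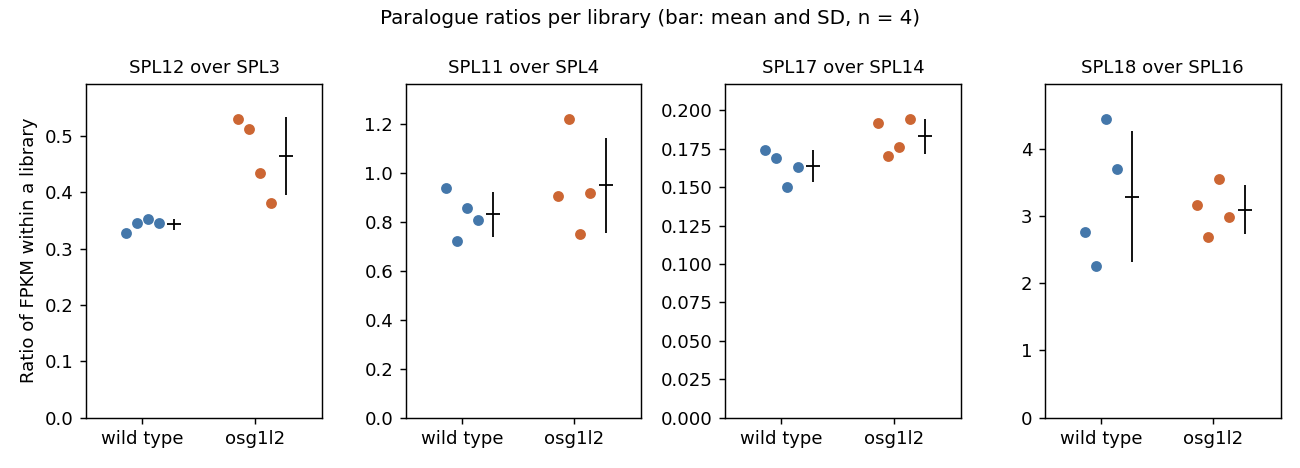
Ratio of FPKM within each library for 4 paralogue pairs, with wild type in blue, osg1l2 in orange, and the mean and SD of 4 libraries as a bar beside the dots; each axis starts at 0. The SPL12 to SPL3 ratio is 0.328 to 0.352 in wild type and 0.381 to 0.529 in osg1l2, and the other 3 ratios overlap between the genotypes.

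The spread between libraries of 1 genotype was of ordinary size for these genes. The median coefficient of variation of the 9 tested SPL genes was 6.91% in wild type and 7.42% in osg1l2, beside 8.92% and 8.59% over all tested genes. SPL7 had the widest spread among the 9 in wild type, 17.4%, and SPL12 the narrowest, 5.06%. In osg1l2 the coefficient for SPL12 was 10.2%. Wild type replicate 2 differed from the mean of the other wild type libraries by -0.46 for SPL7, -0.36 for SPL13 and -0.18 for SPL14 on the log2(FPKM + 1) scale, and by 0.24 for SPL4. Its part in the results was not tested beyond leaving it out.

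The authors' own comparison was read for the same genes. In the authors' deposited table none of the 10 SPL genes had a q-value under 0.05, where 2.02% of the 37619 entries did. The lowest q-value of the 10 in the authors' deposited table was that of SPL12, 0.070, with a log2 fold change of 0.29. SPL14 had a log2 fold change of -0.14 (q = 0.69) and SPL3 of -0.16 (q = 0.52) in the authors' deposited table. The most negative value of the 10 there was that of SPL13, -0.21 (q = 0.98). For SPL7 and SPL17 the authors' deposited table gave small positive fold changes, 0.034 and 0.037, where the FPKM means differed in the negative sense.

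The genes most like SPL14 in their pattern over the 8 libraries were Os01g0924200 and Os06g0134000, for which the tables used here give no name. Likeness was the root mean square difference of log2(FPKM + 1) after centring each gene. It was 0.030 for Os01g0924200 and 0.031 for Os06g0134000, beside a median of 0.16 over the 18245 tested genes outside the SPL set. Neither of them passed the test (log2 difference -0.18 for each, limma adjusted p = 0.22 and 0.14). Both were picked as the closest, so their small distances and SPL14-like differences follow from the choice. Os01g0924200 was at only 2.22 to 3.20 FPKM, a level at which the pseudocount shrinks differences.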

How the data were processed

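RNA sequencing of 4 wild type and 4 osg1l2 libraries was read from 2 tables. The authors deposited one FPKM value per gene and library; the sources used here name neither aligner nor quantifier, and the submitters' processing notes name the IRGSP-1.0 build. FPKM values far below what a single read gives occur, so whole reads were not recovered and depth is unknown. Per the file headers, the authors' second table holds a value per genotype (with no unit named, treated as a score), a q-value and a log2 fold change; their test is not given. How the value per genotype was combined is not stated either.

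Libraries were grouped by their titles. Genes averaging 1 FPKM or more were tested across the whole table with limma 3.58.1 in R 4.3.3, on log2(FPKM + 1), with an intensity trend, two-sided tests and Benjamini-Hochberg adjustment; the pseudocount understates changes of low genes. The procedure was tested on simulated data. Single genes were also compared by an exact permutation test over libraries. Tables were joined with Python 3.11.15, numpy 2.4.6 and pandas 2.3.3 and drawn with matplotlib 3.10.9. The design text calls the replicates independent but not in what respect; p-values therefore reflect only how these libraries vary. Alternatives were 2 pseudocounts (0.1 and 0.5), 2 filters (none, and a mean of 5 FPKM), median-of-ratios and quantile scaling, a replicate block, library quality weights, a robust prior and leaving out each library.

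The members and lists were chosen with earlier results of these data known. The member names came with their identifiers. In the RefSeq gene table (assembly ASM3414082v1) no member was found by identifier, and 7 of 10 names were listed as synonyms of a gene on the chromosome that the identifier gives. The names SPL3 and SPL17 were not listed as synonyms. SPL18 was listed for 1 gene, but not on chromosome 9, which its identifier gives. Lists of other SPL genes, of genes acting with SPL proteins and of tissue markers were drawn up, but 1 of the 37859 identifiers was in that table, so they were not used. Genes named are all 10 members and the 2 genes most like the most abundant member.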

Additional observations from a re-analysis of the deposited data

Results flagged for a closer look

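The SPL11 level in wild type replicate 4 was 1.68 FPKM, where replicates 1 to 3 of the wild type lay between 1.94 and 1.95 FPKM. Its gap to the nearest of them was 0.970 of the group's range, above Dixon's 95% critical value for 4 values. It was 1 of 20 groups of 4 values looked at, and chance alone gives about 1 in 20.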

How the results depend on the processing

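None of the tested SPL genes was called under any of the 17 alternatives, and none changed the sign of its difference. The 2 filters, the replicate block and the robust prior leave a log2 difference as it is, so they could not change a sign. SPL4, SPL11 and SPL18 had 16 alternatives, because they did not reach a mean of 5 FPKM. The lowest adjusted p of any SPL gene was 0.057, for SPL12 with library quality weights. The number of genes called over the whole table, 352, moved to 153 with a mean of at least 5 FPKM (fewer genes tested), to 152 with the replicate block and to 1097 with library quality weights. Leaving out each library gave 155 to 826 genes, the highest without wild type replicate 2. In these last 3 cases the cause was not tested. The data did not pair libraries of the same number: within-genotype deviations of replicates 1 to 4 were correlated at 0.069, -0.017, -0.091 and -0.12, and 1 of 8 libraries correlated best with their own number. Without single libraries the log2 difference ranged from -0.24 to -0.15 for SPL14, from -0.19 to -0.12 for SPL3, from -0.22 to -0.081 for SPL13, from -0.20 to -0.012 for SPL7, from -0.13 to -0.019 for SPL4, from -0.070 to -0.012 for SPL17, from 0.0017 to 0.063 for SPL11, from 0.061 to 0.14 for SPL18 and from 0.21 to 0.31 for SPL12. The unadjusted p of SPL3 was 0.14 after median-of-ratios and 0.23 after quantile scaling, against 0.045, and that of SPL14 was 0.064 after quantile scaling, against 0.018. The summed level differed by -24.4 to -16.5 FPKM without single libraries. Depth is unknown, so what it limits was not assessed.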

Other observations

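The values per genotype in the authors' deposited table were on another scale than the FPKM means, and by a different factor for each SPL gene. In wild type the value in the authors' deposited table was 1.09 times the mean FPKM for SPL13, 1.61 times for SPL3, 1.88 times for SPL14, 2.15 times for SPL17 and 2.48 times for SPL7. The order of the 6 most abundant genes was the same in both sources, but the steps between them were not. In the authors' deposited table SPL12 and SPL17 were at 33.4 and 32.0 in wild type and at 40.9 and 32.8 in osg1l2. The FPKM ranges of SPL12 and SPL17 over the 8 libraries did not overlap. Below the 6 most abundant genes the authors' deposited table placed SPL18 (3.77) above SPL4 (3.73) and SPL11 (3.22) in wild type. The FPKM means over the 8 libraries ran SPL4, SPL11, SPL18.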
